A study of Mus musculus with 18 samples.

Results

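Immediate early genes are transcribed within minutes of a stimulus from factors that the cell already holds, so their mRNA can rise without new protein synthesis. Many of these mRNAs are also short-lived, and some carry AU-rich stretches that RNA-binding proteins such as Zfp36 recognise to hasten decay. The genes followed here are the members outside the Fos and Jun (AP-1) family: the transcription factors Egr1, Egr2, Klf6, Myc, Nr4a1 and Nr4a2, the feedback regulators Zfp36 and Dusp1, and the response genes Ier2 and Ier3. They were chosen by name, as every non-control probe of the arrays annotated with one of the 10 symbols or an older alias. Of 27670 genes or unnamed transcripts on the array these are 10, with 15 of the 41174 gene probes, of which 14 were kept after a filter on dim probes that left 19082 in all.

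The study measured mouse thyroid before and after partial thyroidectomy, the surgical removal of part of the gland. Central and peripheral areas of the thyroid lobes of male C57BL/6 mice were cut from frozen sections by laser capture, their RNA was amplified, and each region was hybridised in Cy5 to 1 array of 18. The common reference in Cy3 was a commercial mixture of RNA from Swiss Webster mouse organs that does not list thyroid. Normal thyroid gave 5 central and 3 peripheral regions, and thyroid after partial thyroidectomy, called dissected, gave 5 of each area. The time between surgery and sampling, the age of the mice and which regions came from the same mouse were not given in the sources used here.

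Values are log2 ratios of thyroid over reference, so 1 unit is a doubling, and a difference between groups is a difference of mean log2 ratios. A probe's ratio says nothing about how abundant its mRNA is next to that of another gene. In captured tissue, fewer cells of a type and less RNA per cell cannot be told apart. The share of gene probes with a Cy5 signal well above background was lowest at 24.7%, on normal peripheral array 1, and 35% or more on all but 4 arrays. The array position on the slide was the same for every array of a group, so position and group cannot be told apart. Among follicular cell markers, 6 of 8 were kept, and Slc5a5 and Foxe1 were not well above background on any array. The 7 kept C cell markers of 8 averaged 0.87 to 1.90 in normal central and -2.22 to -1.29 in normal peripheral areas, and -1.59 to 1.36 in dissected central and -3.10 to -2.64 in dissected peripheral areas. They thus differed without overlap between areas in both states, and between dissected and normal thyroid in the peripheral area, and their part in the values of the members was not tested. Marker averages of endothelium, fibroblasts, smooth and skeletal muscle, fat, parathyroid and red blood cells overlapped between the groups in all 4 comparisons.

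The sequences shown first are those that bear on mRNA decay or on how probes of 1 gene were placed. The motif ATTTA, the core of AU-rich elements, was searched in the 60 bases of each probe on the strand as deposited. It was present in 4 of the 15 member probes (Dusp1, Egr1, Ier3 and the second Zfp36 probe), and in 9.16% of the 41174 gene probes. At least 2 copies were present in the Ier3 and the second Zfp36 probe, against 0.697% of gene probes. In these 30-base stretches the capitals mark ATTTA.
Zfp36 probe 2 (A_52_P80944): ATTTAttgtattaagattttatagtATTTA
Ier3 (A_51_P286488): acacagatATTTAttacgATTTAtagggtc
Dusp1 (A_51_P430900): agtttttacctttATTTAtttttgtgtagg

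The other probes of Zfp36, Klf6 and Myc are shown by their first 30 bases, because the results below turn on how well such probes match each other. They hold no ATTTA.
Zfp36 probe 1 (A_51_P158538): tggtctcctggaatcttaagtgctgtgaag
Klf6 probe 1 (A_51_P451346): tttaatactaagcagtccattctggtcagg
Klf6 probe 2 (A_51_P503162): atagcacccatggtgcatggtgtttgggtg
Myc probe 1 (A_51_P102096): gttccttctgacagaactgatgcgctggaa
Myc probe 2 (A_52_P278549): aaattgatgtggtgtctgtggagaagaggc
Myc probe 3 (A_52_P108346): aacagttgaaacacaaactcgaacagcttc

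On the mouse build of the scanner files (mm7), the Zfp36 probes lie at chr7:25310682-25310724 and chr7:25310819-25310878 on the minus strand, with starts 137 bases apart. The Klf6 probes lie at chr13:5755138-5755197 and chr13:5752473-5752532 on the plus strand, with starts 2665 bases apart. The Myc probes lie at chr15:62064256-62064316, chr15:62063665-62063724 and chr15:62064157-62064216 on the plus strand. Probe 1 starts 591 bases from probe 2 and 99 bases from probe 3. The Egr2 probe lies at chr10:67145376-67145435 and the Nr4a1 probe at chr15:101260484-101260543, both on the plus strand. The exon or untranslated region under each probe was not determined, because no genome of that build was used.

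Promoters are shown for Zfp36, the gene with the smallest p-value below, and for Nr4a1, the gene with the widest spread. RefSeq promoters on GRCm38.p6 matched 7 members, namely Dusp1, Egr2, Ier3, Klf6, Nr4a1, Nr4a2 and Zfp36, and did not match Egr1, Ier2 and Myc. The 250 bases before the start were searched on both strands for the CArG box (the site of serum response factor), TGACG (the short form of the cAMP response element), TGACGTCA (the whole element, which contains TGACG on both strands), GCGGGGGCG or GCGTGGGCG (the site of Egr factors), TATAAA and CCAAT. In the printed stretches the capitals mark these motifs on either strand, other than CCAAT.
Zfp36, chr7:28379229-28379478, minus strand: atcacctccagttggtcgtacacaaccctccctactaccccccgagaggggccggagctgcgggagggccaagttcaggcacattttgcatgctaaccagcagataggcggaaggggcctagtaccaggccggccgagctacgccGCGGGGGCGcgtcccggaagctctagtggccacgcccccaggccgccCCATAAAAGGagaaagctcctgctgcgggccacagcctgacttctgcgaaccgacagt
Nr4a1, chr15:101266596-101266845, plus strand: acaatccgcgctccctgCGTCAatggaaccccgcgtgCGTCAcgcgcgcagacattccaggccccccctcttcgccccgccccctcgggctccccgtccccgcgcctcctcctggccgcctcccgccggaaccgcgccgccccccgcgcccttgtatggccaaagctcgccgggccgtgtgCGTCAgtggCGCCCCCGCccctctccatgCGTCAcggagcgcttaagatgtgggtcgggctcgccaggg
Egr2, 30 bases around its CArG box, chr10:67537787-67537816, plus strand: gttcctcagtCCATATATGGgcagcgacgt

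A CArG box was found for Zfp36 and in 4 of the 5 promoter entries of Egr2, against 1.47% of all 32851 promoters. Some of these Egr2 entries overlap and hold the same box, the one printed above, and another holds a different box, so they are not separate finds. Nr4a1 held 4 matches to TGACG and Nr4a2 held 4. Dusp1 held 3, counting both strands of its whole element, and some entries of Egr2 held 2, while 17.8% of promoters held at least 1. Dusp1 held the whole element TGACGTCA, as did 1.55% of promoters. An Egr site was found for Zfp36 and Nr4a1, against 3.06% of promoters, TATAAA for Nr4a2, against 12.4%, and CCAAT for Egr2, Ier3 and Klf6, against 33.8%. Matches describe the letters only.

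**Figure D1:**
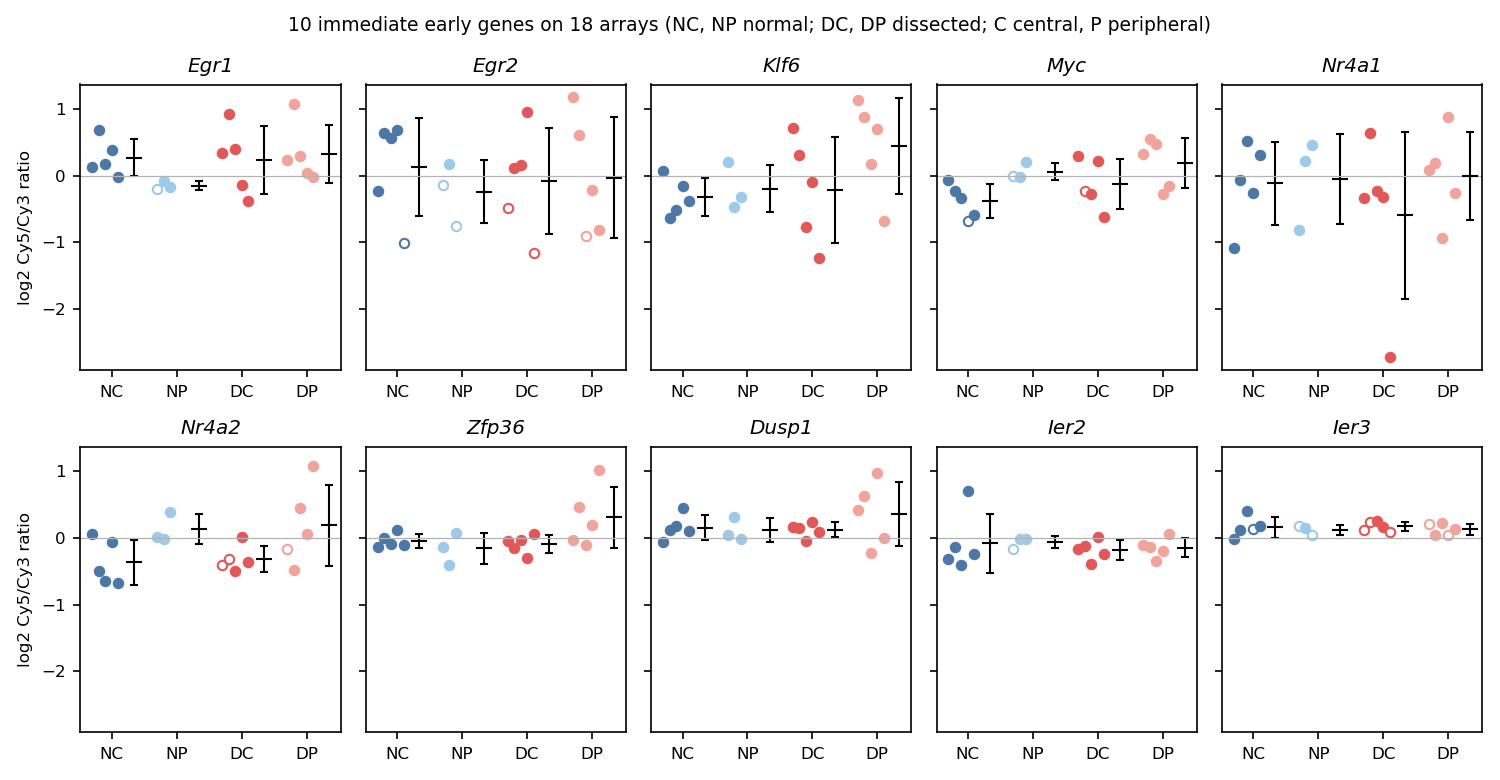
Log2 ratio of thyroid over reference (vertical axis) on each of 18 arrays for the probe that stands for each gene, by group (NC and NP normal central and peripheral, DC and DP dissected central and peripheral). Filled points were well above background and open points were not, and the bar beside each group is the mean ± SD. Nr4a1, Egr2 and Klf6 scatter most within groups. The mean of Zfp36 is highest in dissected peripheral areas, whose values overlap those of every other group.

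None of the 14 kept probes differed between groups at an adjusted p under 0.05 in limma's moderated test, in any of the 4 pairwise comparisons or in the difference between the areas. Over all 19082 kept probes the same test called 0% for dissection in either area, 0.215% for the area in normal thyroid, 0.461% for the area in dissected thyroid and 0% for the difference between areas. The F test among the 4 groups called none of the 14 and 0.818% of all probes, and at an unadjusted p under 0.05 it held 1 member, Zfp36 probe 2, and 8.36% of all probes. The 95% confidence interval of a member typically reached 0.40 to either side of the difference in comparisons of 5 arrays with 5, and 0.46 in those with normal peripheral areas.

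The largest share of members above 0 was in the peripheral area after dissection. There, 11 of 14 probes were higher in dissected than in normal thyroid, against 51.8% of all kept probes, and the median difference was 0.17, against 0.01 over all. The median was 0.29 without dissected peripheral array 3 and 0.10 without array 4. Of the 14 probes, 10 lay above the median of all probes, and with the deposited ratios it was 8 of 12. In the central area 7 of 14 were higher, against 48.5%, with a median of -0.01 for members and for all probes. Between areas of the dissected thyroid 12 of 14 were lower in the central area, against 51.8%, with a median of -0.18 against -0.01. This median was -0.06 without dissected central array 5 and -0.29 without array 4. The comparisons of 11 and 12 of 14 share the dissected peripheral arrays. Between areas of the normal thyroid 8 of 14 were lower in the central area, against 47.8%, with a median of -0.02 against 0.01. This last count was 3 of 14 with median centring, which moved the median of all probes to 0.23. Groups without overlap numbered 0 of 14 probes in the central area (0.964% of all kept probes), 2 in the peripheral area (4.04%), 2 between areas of normal thyroid (4.51%) and 0 between areas of dissected thyroid (1.53%). At an unadjusted p under 0.05 by limma, member probes numbered 0 for the central area (5.23% of all probes) and 2 for the peripheral area (7.69%). They numbered 0 for the area in normal thyroid (7.77%), 3 for the area in dissected thyroid (7.11%) and 1 for the difference between areas (5.52%). The 2 were both probes of Zfp36, the 3 were both probes of Zfp36 and that of Nr4a2, and the 1 was Zfp36 probe 2.

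**Figure D2:**
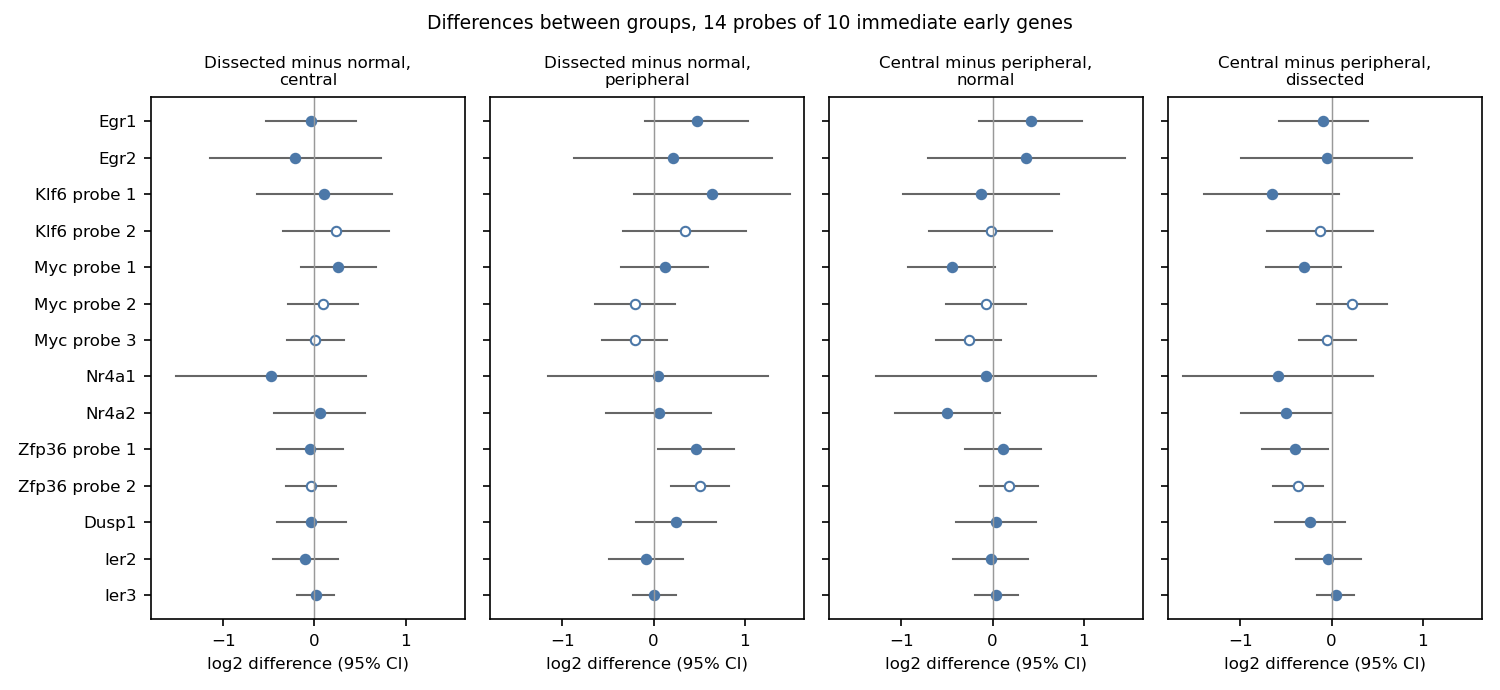
Difference of mean log2 ratios (horizontal axis) with its 95% confidence interval for each of 14 probes in 4 comparisons, filled points being the probe that stands for a gene. The intervals of both Zfp36 probes lie above 0 in the peripheral comparison after dissection and below 0 between the areas of dissected thyroid, and no difference passed the adjusted threshold.

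Zfp36, the zinc-finger protein that binds AU-rich mRNAs and speeds their decay, had the smallest p-values of the 10 genes in 3 comparisons, namely the peripheral area after dissection, the areas of dissected thyroid and the difference between areas. In the other two, Myc had the smallest. By probe 2 the dissected peripheral values were 0.37, 0.70, 0.35, 0.24 and 0.86. The normal peripheral values were -0.12, 0.11 and 0.01, the first of them not well above background. All 5 dissected peripheral arrays thus lay above all 3 normal peripheral arrays, as the groups of 4.04% of all kept probes did not overlap in this comparison. The difference was 0.50 (SE 0.15), a 1.42-fold higher ratio, with an unadjusted p of 0.00375 and an adjusted p of 0.51 by limma, and it ranked 139 of 19082 by p. The central areas lay between, at 0.18 ± 0.16 (SD, n = 5) in normal and 0.14 ± 0.15 (SD, n = 5) in dissected thyroid.

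Zfp36 probe 1 gave dissected peripheral values of -0.03, 0.46, -0.11, 0.19 and 1.02. Its normal peripheral values were -0.14, -0.40 and 0.07. These groups overlapped, with 2 dissected arrays below the highest normal one. The difference was 0.46 (SE 0.20), with an adjusted p of 0.63 by limma. It was 0.76 on the arrays of the second scan day and -0.03 on those of the first, and without dissected peripheral array 5 it was 0.29. Probe 2 gave 0.65 and 0.28 on these days, and 0.42 without array 5. Of the normal peripheral arrays, the first scan day held only array 3. The size depended on the scaling: the log ratio of the scanner software gave 0.88 by probe 1 and 1.28 by probe 2, without either passing the adjusted threshold.

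Between the areas of the dissected thyroid, the central arrays were lower in Zfp36 by 0.40 (SE 0.17) by probe 1 and by 0.37 (SE 0.13) by probe 2, with adjusted p-values of 0.64 and 0.43 by limma. By probe 2 the central array was the lower one on all 5 slides. The change after dissection differed between the areas by -0.51 and -0.54 for the 2 probes, with an adjusted p of 0.83 by limma for both. The groups of the 2 comparisons share arrays, so these values are not separate evidence. Macrophage markers, 5 of 5 kept, averaged -0.48 to 0.05 in normal peripheral and -0.31 to 0.49 in dissected peripheral areas, and overlapped. C cell markers did not overlap between these groups, at -2.22 to -1.29 in normal and -3.10 to -2.64 in dissected peripheral areas. The part of either in the Zfp36 values was not tested.

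Dusp1, the phosphatase that inactivates MAP kinases as feedback, had a probe well above background on all 18 arrays. Its mean was 0.16 ± 0.19 (SD, n = 5) in normal central, 0.11 ± 0.18 (SD, n = 3) in normal peripheral, 0.12 ± 0.11 (SD, n = 5) in dissected central and 0.36 ± 0.48 (SD, n = 5) in dissected peripheral areas. Dissected peripheral areas ran from -0.23 to 0.97 and spanned the values of every other group. The difference after dissection was 0.24 (SE 0.21) in the peripheral and -0.04 (SE 0.18) in the central area, with limma adjusted p-values of 0.82 and 1.00.

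Egr1 encodes a zinc-finger factor induced by growth factors and injury, and it separated the normal peripheral arrays from both neighbouring groups. The normal peripheral values were -0.21, -0.07 and -0.17, the first of them not well above background. Normal central values were 0.13, 0.68, 0.17, 0.39 and -0.02. Dissected peripheral values were 0.23, 1.07, 0.29, 0.04 and -0.03. All 3 normal peripheral arrays therefore lay below every array of these 2 groups, by as little as 0.05. The difference was 0.42 (SE 0.27) between areas of normal thyroid and 0.47 (SE 0.27) after dissection in the peripheral area, with adjusted p-values of 0.74 and 0.69 by limma. Non-overlap of this kind was seen for 4.51% and 4.04% of all kept probes. Without dissected peripheral array 2 the second difference was 0.29. In the central area Egr1 ran from -0.38 to 0.93 after dissection, around a mean of 0.23 ± 0.51 (SD, n = 5), and differed from normal by -0.04 (SE 0.23).

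Egr2, a related zinc-finger factor, was printed as 10 spots of 1 probe, so the error of a spot can be set beside the spread between arrays. Arrays differ in capture, amplification, labelling and hybridisation as well as in the region. The SD between spots of an array had a median of 0.07, whereas the SD between arrays of a group had a median of 0.76. Normal central values were -0.23, 0.63, 0.56, 0.68 and -1.01. Dissected central values were -0.49, 0.12, 0.15, 0.95 and -1.17. In both central groups array 5, on the same slide, was the lowest. Dissected peripheral values were 1.17, 0.61, -0.90, -0.22 and -0.82, and normal peripheral values -0.14, 0.17 and -0.76. Every group thus held high and low arrays, and the 4 ranges overlapped. The probe was well above background on 12 of 18 arrays, with both of the values under -1 among the other 6. None of the 4 pairwise comparisons gave an Egr2 difference above 0.37 in size, with standard errors of 0.44 to 0.51. With the log ratio of the scanner software in place of the ratio computed here, the difference between the areas of the normal thyroid was 1.43, against 0.37.

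**Figure D3:**
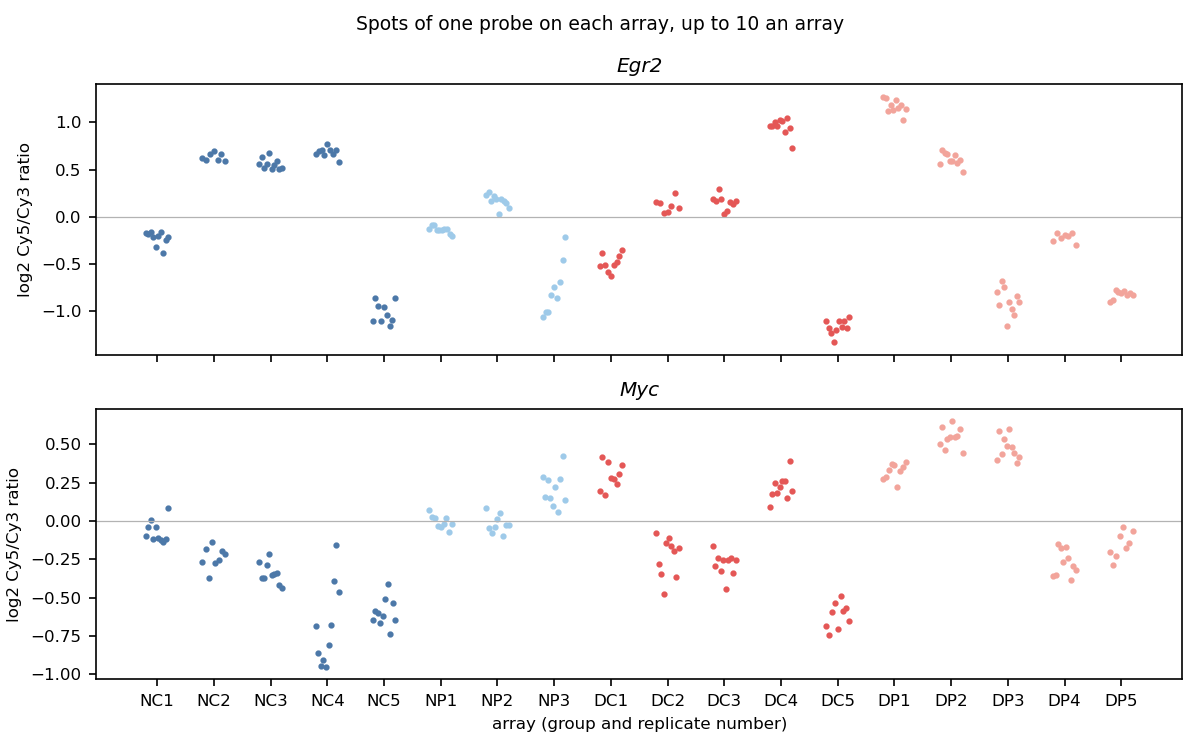
Log2 ratio of each spot (vertical axis) of the Egr2 probe and of Myc probe 1 on each of 18 arrays (horizontal axis, group and replicate number), up to 10 spots an array. Spots of 1 array cluster tightly, with a median SD of 0.07 for Egr2 and 0.08 for Myc, while arrays of 1 group spread widely.

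Klf6, a Krüppel-like factor, was well above background on all 18 arrays by both probes. By probe 1 the dissected peripheral values were 1.14, 0.88, 0.18, 0.69 and -0.68. Dissected central values were 0.71, 0.31, -0.77, -0.09 and -1.24. On each of the 5 slides the central array was the lower one, yet the groups overlapped widely. The difference was -0.66 (SE 0.35), with an adjusted p of 0.77 by limma. Without dissected central array 5 it was -0.40. Probe 2 gave -0.13 (SE 0.28) for the same comparison, with the central array lower on 3 of 5 slides.

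After dissection Klf6 differed in the peripheral area by 0.64 (SE 0.41) by probe 1 and 0.34 (SE 0.32) by probe 2, with the dissected array higher on 3 of 3 shared slides by both. Normal peripheral values were 0.21, -0.47 and -0.32 by probe 1. In the central area the differences were 0.11 (SE 0.35) and 0.23 (SE 0.28). The adjusted p-values by limma were 0.73 and 0.84 in the peripheral area and 1.00 for both probes in the central area. Both probes gave positive differences in both areas, within the spread of the arrays, but the sign of probe 1 in the central area was not stable. It was -0.17 with median centring in place of loess, -0.12 and -0.02 without dissected central array 1 or 2, -0.09 on the arrays of the first scan day, and -0.38 without the 4 arrays with the fewest probes above background.

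Nr4a1, an orphan nuclear receptor, had the widest within-group spread of the members, with an SD of 0.87 that exceeded that of 99.0% of kept probes. Its dissected central values were -0.34, 0.63, -0.23, -0.32 and -2.72. The last lay far below the other 4, and it decided the group mean of -0.60 ± 1.26 (SD, n = 5). Normal central values were -1.08, -0.06, 0.51, -0.26 and 0.30. The difference after dissection in the central area was -0.48 (SE 0.50), and 0.05 without that array. Peripheral areas averaged -0.05 ± 0.68 (SD, n = 3) in normal and -0.01 ± 0.66 (SD, n = 5) in dissected thyroid, a difference of 0.04 (SE 0.57). The difference between areas of dissected thyroid was -0.59 (SE 0.50), and -0.06 without dissected central array 5.

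The same array, dissected central 5, held the lowest value of the 18 for 4 of the 10 genes, namely Egr1, Egr2, Klf6 and Nr4a1. This holds for the probe that stands for each gene. Klf6 probe 2 was -0.42 there and as low as -0.84 in normal central areas, and Myc probe 2 had its highest value there, 0.74. The share of all kept probes with their lowest value on this array was not computed. Of 12 cell marker averages on this array, 6 lay outside the range of the other 4 arrays of its group. Such departures were not particular to it, since some array of a group is always the highest or lowest. Dissected central array 2 lay outside the others for C cells (-1.59), smooth muscle (0.69) and skeletal muscle (1.42), among others. On array 5, lymphocyte markers (2 of 5 kept) averaged 0.69, against -0.32 to 0.01, and red blood cell markers 0.18, against -0.41 to 0.03. Lower than on the others were the averages of fibroblasts (-0.55, against -0.21 to 0.23), skeletal muscle (-1.34, against -0.62 to 1.42), fat (-0.74, against -0.64 to 0.10) and follicular cells (0.01, against 0.11 to 0.29). The part of these in the low values of the array was not tested. It was not among the 4 arrays with the fewest probes above background, with 36.1% of gene probes well above background. Mast cell markers, 3 of 4 kept, averaged -0.28 to 1.37 in dissected central areas, -0.83 to 0.24 in normal central areas and -0.95 to -0.30 in dissected peripheral areas, and their part in these comparisons was not tested.

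Nr4a2, the second nuclear receptor of this family, had lower means in central than in peripheral areas in both states. Its means were -0.37 ± 0.34 (SD, n = 5) in normal central, 0.13 ± 0.23 (SD, n = 3) in normal peripheral, -0.31 ± 0.20 (SD, n = 5) in dissected central and 0.19 ± 0.61 (SD, n = 5) in dissected peripheral areas. The central minus peripheral difference was -0.50 (SE 0.27) in normal and -0.50 (SE 0.24) in dissected thyroid, with adjusted p-values of 0.70 by limma in both. Groups overlapped in both comparisons. The probe was well above background on every normal array, on 3 of 5 dissected central and on 4 of 5 dissected peripheral arrays. Without dissected peripheral array 5, at 1.08, the second difference was -0.28. After dissection Nr4a2 differed by 0.06 in either area, and by -0.06 and -0.08 in the central and peripheral areas with the log ratio of the scanner software.

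Myc, the growth-promoting transcription factor, was read by 3 probes, of which probe 2 did not follow probe 1. By probe 1, printed as 10 spots, normal central values were -0.07, -0.24, -0.34, -0.68 and -0.59. Normal peripheral values were -0.01, -0.02 and 0.21. All 5 normal central arrays lay below the 3 normal peripheral ones, by as little as 0.05. Probe 1 was well above background on 4 of these central and 2 of these peripheral arrays. The difference was -0.45 (SE 0.23), with an adjusted p of 0.66 by limma. Probe 2 gave -0.07 (SE 0.21), with overlapping groups. Probe 3 gave -0.26 (SE 0.17), also with overlap, but was well above background on only 2 of the 5 central and 1 of the 3 peripheral arrays.

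In dissected thyroid, Myc probe 1 was lower in central than in peripheral areas by -0.31 (SE 0.20) and probe 2 was higher by 0.22 (SE 0.18). Central values by probe 1 averaged -0.12 ± 0.38 (SD, n = 5) and peripheral values 0.18 ± 0.37 (SD, n = 5). Probe 3 was not well above background on any dissected central array, so its level there is only a bound and no difference is given for it. After dissection in the peripheral area, probe 1 gave 0.12 (SE 0.23) and probe 2 -0.20 (SE 0.21), so the sign depended on the probe. Probe 3, well above background on 1 of 3 normal and 3 of 5 dissected arrays, gave -0.21 (SE 0.17), and 0.03 by the log ratio of the scanner software. None of the 3 passed the threshold.

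Ier2, a short nuclear response protein, stayed near the reference. The means of probe 1 were -0.08 ± 0.45 (SD, n = 5), -0.06 ± 0.08 (SD, n = 3), -0.18 ± 0.15 (SD, n = 5) and -0.14 ± 0.15 (SD, n = 5) in normal central, normal peripheral, dissected central and dissected peripheral areas. Normal central array 4, at 0.70, stood apart from the rest of its group, which ran up to -0.14. Between areas of normal thyroid probe 1 differed by -0.02 (SE 0.19), and by 0.40 with the log ratio of the scanner software. The second Ier2 probe was well above background on 1 array and was the only member probe not kept. Ier3, a regulator of survival under stress, had the narrowest spread of the members, with means of 0.12 to 0.17 in the 4 groups. Its probe was well above background on 10 of 18 arrays, and the offset added to low signals draws such ratios towards 0. Its differences in the 4 comparisons were 0.01 to 0.04, with standard errors of 0.10 to 0.11. With the log ratio of the scanner software, Ier3 differed after dissection by -0.23 in the central and -0.24 in the peripheral area.

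For 4 of the 10 genes the arrays hold several probes, and their match over the 18 arrays is a description of the measurements, which share arrays and labelling. Both Zfp36 probes had a Pearson correlation of 0.77 and a Spearman correlation of 0.43. Without the 2 arrays farthest from the median of probe 1 (dissected peripheral 5 and 2) the Pearson value was 0.27. The match thus rested on the 2 arrays with the highest Zfp36 values. The Klf6 probes correlated at 0.46, and at 0.42 without 2 arrays. Myc probes 1 and 3 correlated at 0.69, probes 1 and 2 at -0.24, and probes 2 and 3 at 0.12. Without the 2 arrays farthest from the median of the probe named first in each pair, these values were 0.62, -0.23 and 0.47. The kept and the dim Ier2 probe correlated at 0.39. Over all 2854 genes with exactly 2 kept probes, the median correlation was 0.19, with quartiles of -0.05 and 0.51.

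**Figure D4:**
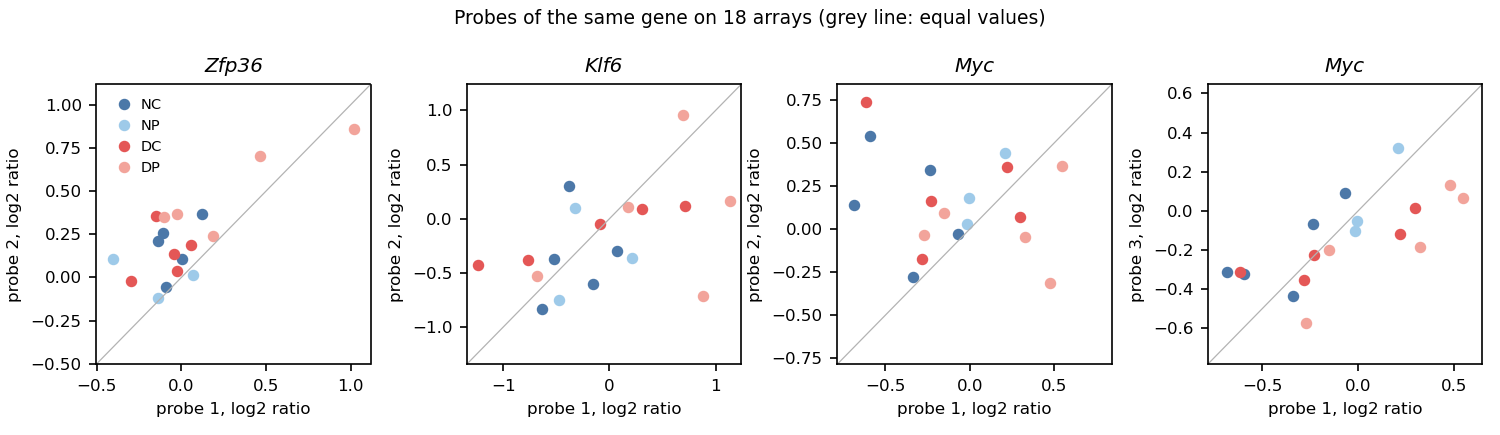
Log2 ratios of 2 probes of the same gene against each other on 18 arrays (points, coloured by group), with a grey line at equal values. The Zfp36 probes both place 2 dissected peripheral arrays highest, Myc probes 1 and 3 follow each other (0.69), and Myc probes 1 and 2 do not (-0.24).

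The spread within groups set the members apart from each other more than any comparison did. The pooled SD within groups was 0.87 for Nr4a1, 0.77 for Egr2 and 0.61 for Klf6 probe 1, above 99.0%, 98.2% and 93.9% of the kept probes. It was 0.40 for Nr4a2 and 0.39 for Egr1, and between 0.27 and 0.32 for Myc probe 1, Dusp1, Zfp36 probe 1 and Ier2. Ier3, at 0.11, exceeded 2.24% of kept probes, and the median over all was 0.31. Among the 45 pairs of members, 29 correlated above 0 over the 18 arrays, with a median of 0.14. The pair with the highest correlation was Klf6 and Myc (0.62), and that with the lowest was Egr1 and Nr4a2 (-0.36). All 6 pairs among Egr1, Egr2, Klf6 and Nr4a1, the genes lowest on dissected central array 5, correlated at 0.35 to 0.44. Because these genes were picked by their shared lowest array, positive values are partly built in. Their correlations without that array were not computed. These values carry no test.

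Among 14654 other genes, those with the pattern most like Nr4a1 over 18 arrays were Cav2 (Pearson 0.85), Plekhg1 (0.84) and Ecscr (0.83). Without the 2 arrays farthest from the Nr4a1 median, dissected central 5 among them, these values were 0.66, 0.78 and 0.44. For Egr2 they were Kat6b (0.81), Atl1 (0.76) and Mb (0.75), and 0.81, 0.67 and 0.60 without 2 arrays. For Klf6 they were the transcript BU920841 (0.87), Jun (0.83) and AI851065 (0.80), and 0.82, 0.76 and 0.71 without 2 arrays. Jun, a subunit of AP-1, differed by 0.15 (SE 0.31) and 0.27 (SE 0.36) after dissection in the central and peripheral areas, neither past the threshold. These are the highest of many correlations and carry no test.

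The wider immediate early response gave no called gene either. Of 46 other immediate early genes listed, 38 were measured, and none passed the threshold in the 4 comparisons or in the difference between areas by limma. By the probe that stands for a gene, some passed an unadjusted p under 0.05 by limma. After dissection, 2 were higher and 1 lower in the central area, against 5.23% of all kept probes. In the peripheral area, 2 were higher and 2 lower, against 7.69%. In normal thyroid, 5 were higher and 1 lower in the central than in the peripheral area, against 7.77%. In dissected thyroid these counts were 1 and 0, against 7.11%. The 38 genes had a median difference after dissection of -0.07 in the central area, against -0.01 over all probes, and 0.08 in the peripheral area, against 0.01. The gene with the smallest unadjusted p in each area was Ccn2, a matricellular growth-factor-binding protein, which differed by 1.29 (SE 0.39, limma adjusted p = 0.70) and by 1.30 (SE 0.45, limma adjusted p = 0.59). Cebpb, a factor of the acute phase response, differed by 0.64 (SE 0.20) in the central area and Dusp4, a phosphatase of MAP kinases like Dusp1, by -0.64 (SE 0.25) in the peripheral area. Between areas of normal thyroid, Rgs2, an inhibitor of G protein signalling, differed by 1.08 (SE 0.31, limma adjusted p = 0.26), and by 0.68 (SE 0.26) in dissected thyroid. Cebpb differed by -0.75 (SE 0.23, limma adjusted p = 0.34) between areas of normal thyroid. That comparison uses the same normal central arrays as its 0.64 after dissection.

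The genes around the members in the pathway gave the same count. Of 9 AP-1 genes 7 were measured, and none was called by limma. At an unadjusted p under 0.05 there was 1 after dissection in the central area, against 5.23% of all kept probes, and 0 in the peripheral area, against 7.69%. Between areas there was 1 in normal thyroid, against 7.77%, and 0 in dissected thyroid, against 7.11%. Jdp2, a repressor that dimerises with Jun, came nearest, with 0.80 (SE 0.13, limma adjusted p = 0.14) after dissection in the central area and -0.65 (SE 0.15, limma adjusted p = 0.12) between areas of normal thyroid. Both use the normal central arrays, so they are not separate evidence. Without those arrays, Jdp2 differed by 0.05 (SE 0.15) after dissection in the peripheral area and by 0.10 (SE 0.13) between areas of dissected thyroid. Of 17 upstream kinases and serum response cofactors 15 were measured, with none called. Elk3, a partner of serum response factor, differed by -0.58 (SE 0.18) after dissection in the central area, and the kinase gene Rps6ka1 by -0.79 (SE 0.31) in the peripheral area. Of 10 partners of Egr and Myc 8 were measured, with none called, and Nab2, a corepressor of Egr factors, differed by -0.34 (SE 0.15) between the areas of dissected thyroid. All 10 listed Myc targets were measured and none was called, with medians of -0.05 and 0.09 after dissection in the central and peripheral areas. Among these targets Npm1, a nucleolar protein, differed by 0.64 (SE 0.28) and Cad, an enzyme of pyrimidine synthesis, by -0.70 (SE 0.32) in the peripheral area.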

How the data were processed

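The deposited scanner files give spot intensity and local background intensity in Cy5 and Cy3, written by Agilent Feature Extraction 9.5.1.1 per the file headers (8.5.1.1 per the submitters' processing notes). Their log10 ratio comes from the same program after background subtraction and dye normalization, per the file headers. A series value table of linear ratios was deposited too, with no stated steps. Its columns, centred by probe, correlated at 0.995 to 1.000 with the scanner ratio and had medians of 0.87 to 1.06, and whether and how it was centred is unknown. It holds 13 of the 15 member probes, without Egr2 and Myc probe 1. The scanner ratio and these deposited ratios served as alternatives.

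Mean intensities were corrected with normexp (offset 50) and loess-normalized within arrays in limma 3.58.1 (R 4.3.3, with the package data.table at version 1.17.8), with control spots at weight 0 and non-uniform and population outlier spots left out. Spots of a probe were averaged. Probes were kept if well above background in Cy5 on at least 3 arrays. Genes were named through RefSeq accessions (22951 probes), current symbols (6659) or older symbols (3109), and the remaining 8455 carry the name used in the scanner files. A single linear model of 4 group means took in all 18 arrays, with eBayes moderation and two-sided p-values adjusted over 19082 probes (Benjamini-Hochberg, called under 0.05). The number of arrays limits the precision. The labels do not tie regions to mice, so p-values may be too small. The model also leaves out the slide that arrays of different groups shared, which may make them too large.

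All kept member probes were named, the brightest on average standing for its gene. The genes most like a member were searched for all members and named for the 3 with the widest spread, and at most 4 genes of a list were named by smallest p. Members and lists were chosen with earlier results of these data known. Other background, normalization, filter, probe summary and block choices, and leaving out each array, were alternatives. Scripts were tested on simulated data.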

Additional observations from a re-analysis of the deposited data

Results flagged for a closer look

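In the 42 combinations of a kept member probe and a group of 5 arrays, 1 array lay so far from the others that its gap, divided by the range of the group, passed Dixon's critical value of 0.71. This was normal central array 4 for Ier2 probe 1, at a log2 ratio of 0.70, with the nearest array at -0.14. By chance about 1 in 20 such groups would be marked. Dissected central array 5 for Nr4a1 and dissected peripheral array 2 for Egr1 fell just short, both at 0.709, so the count turns on the third decimal. Groups of 3 were not tested.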

How the results depend on the processing

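No member probe and none of the 38 other immediate early genes was called in any comparison under any of the alternatives run, and no member passed the F test. The smallest adjusted p of a member under any of them was 0.135. Of 2401 single-probe values under an alternative, 201 had the other sign than the reported value, all of them not called. The median difference over members, against the values of the report, moved in these cases. With the log ratio of the scanner software it was 0.35 for dissection in the peripheral area, -0.45 between areas of dissected thyroid and -0.43 for the difference between areas. With median centring in place of loess it was -0.17 and 0.44 for dissection in the central and peripheral areas, 0.39 and -0.34 between areas of normal and dissected thyroid, and -0.69 for the difference between areas, while the medians over all probes were -0.13, 0.20, 0.23, -0.11 and -0.35. Set against these, the member median between areas of normal thyroid turned from -0.02 to a value above 0. With the deposited ratios, which hold 12 of the 14 kept probes, it was 0.38 in the peripheral area and -0.47 for the difference between areas, against 0.13 and -0.17 over all probes. With 1 probe a gene the difference between areas was -0.35. The cause of these shifts was not tested.

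Leaving out 1 array at a time gave medians of -0.29 to -0.019 for the difference between areas, the latter without dissected central array 5, of 0.10 to 0.29 in the peripheral area and of -0.29 to -0.06 between areas of dissected thyroid. Without the 4 arrays with the fewest probes above background, an alternative chosen after seeing the data, the medians were -0.06 and 0.07 for dissection in the central and peripheral areas and -0.31 between areas of dissected thyroid. In a check of deviations from group means, 10 of 24 same-numbered pairs correlated above 0.1 (median 0.06, against -0.01 for other pairs). In it, 13 of 18 arrays correlated best with an array of their own number. For arrays of 1 slide it was 11 of 24 pairs (median 0.09, against -0.02 for other pairs) and 14 of 18 arrays. Arrays of 1 number or slide were thus somewhat more alike than others. Not every pair passed 0.1, and the main model did not pair them. With the slide as a block, the medians were 0.31 in the peripheral area and 0.07 between areas of normal thyroid, and no member was called. With the replicate number as a block, the median in the peripheral area was 0.22, no member was called, and calls over all probes went from 41 to 5 between areas of normal thyroid and from 88 to 87 in dissected thyroid. Depth is limited by dim probes, since Ier3, Egr2, Myc probe 3 and the second Ier2 probe were well above background on 10, 12, 6 and 1 of 18 arrays.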
